A study of Mus musculus with 6 samples.

Results

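Cadherins are the calcium-dependent adhesion receptors of adherens junctions: the extracellular repeats of a cadherin bind cadherins of the next cell, and the cytoplasmic tail holds catenins that reach actin. Type I members include E-cadherin of epithelia, N-cadherin of neural and mesenchymal cells, P-cadherin and R-cadherin. Type II members include VE-cadherin of endothelium and OB-cadherin of mesenchymal cells, whereas T-cadherin lacks a transmembrane tail and is held by a lipid anchor. The 9 genes described here are Cdh1, Cdh2, Cdh3, Cdh4, Cdh5, Cdh6, Cdh10, Cdh11 and Cdh13, of 34797 gene names on the array. They were chosen by gene symbol, at a time when earlier results of these data were known, and 14 probes on 23 spots carry these symbols.

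The levels were measured on 1-colour Agilent mouse arrays in total RNA of immortalized mouse embryonic fibroblasts (MEF), with 2 arrays for each of 3 genotypes. WT MEF are labelled with the background W4, TIA1 KO MEF with BALB/c and TIAR KO MEF with C57BL/6, so genotype and background cannot be told apart. TIA1 and TIAR (gene Tial1) are related RNA-binding proteins that act on splicing, translation and mRNA decay. The study describes the 2 arrays of a genotype as different biological samples from independent experiments. Separate clones or embryos are not named, so p-values measure the spread between such samples. All 6 arrays lay on 1 slide, and the TIA1 KO arrays stood in another row of it than the rest, so slide row and genotype cannot be told apart for TIA1 KO MEF.

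The arrays differed in brightness before normalization. Median spot intensity was 152 and 140 (WT), 136 and 120 (TIAR KO), and 458 and 218 (TIA1 KO). The scanner software counted 16000 and 19920 of 55681 probes as well above background in TIA1 KO MEF, and between 23531 and 26254 on the other arrays. TIA1 KO replicate 1 therefore had the brightest background and the fewest detected probes. Values below are normalized log2 intensities, given for replicate 1 and then replicate 2 of the genotype named in brackets, differences are log2 fold changes, and each adjusted p comes from limma with Benjamini-Hochberg adjustment over all 55681 probes. A probe is called when the adjusted p is below 0.05 and the fold change is above 2.

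The knockout labels were checked first on the targeted genes. The brightest Tial1 probe read 9.57 and 11.60 in TIAR KO MEF and 13.22 in the 1 WT array that kept its spot (log2 fold change -2.63, adjusted p = 0.200). The other Tial1 probe read 10.00 and 9.65 in TIAR KO MEF against 11.71 and 11.09 in WT MEF, and it was called lower (log2 fold change -1.58 ± 0.26 SE, n = 2 arrays per group, limma adjusted p = 0.0254). The brightest Tia1 probe read 7.87 and 8.44 in TIA1 KO MEF against 10.72 and 8.54 in WT MEF, a difference that did not pass (log2 fold change -1.47, limma adjusted p = 0.288). TIA1 KO replicate 2 lay close to the lower WT array in this probe. A second Tia1 probe was also lower without passing (-1.62 ± 0.42 SE, limma adjusted p = 0.116), and another dim one, well above background on 1 array, read 7.88 and 8.54 (TIA1 KO) against 7.44 and 7.25 (WT). A called probe thus went with the label for Tial1, and none did for Tia1. The study itself reports that TIA1 and TIAR were absent from their knockout lines, as protein by western blot and as mRNA by RT-PCR. None of 8 Gapdh probes was called in any comparison.

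The fibroblast label was checked on 12 genes. Vim, the intermediate filament of mesenchymal cells, was bright everywhere, at 17.24 and 17.49 in WT MEF. Pdgfra, a receptor of mesenchymal cells, was not well above background in WT MEF (6.37 and 6.40), but read 10.05 and 10.23 (TIA1 KO) and 11.68 and 11.51 (TIAR KO). Dcn and Thy1, other fibroblast markers, were each well above background on 1 of the 2 WT arrays and near background on both, with Dcn at 6.57 and 6.62 and Thy1 at 6.63 and 6.98. Of the 12 genes, 7 and 9 (WT), 8 and 9 (TIA1 KO), and 10 and 10 (TIAR KO) were well above background. Fibroblast markers return beside the cadherins further on.

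The probes behind the results are 60 bases long, and the first 30 bases are printed for 1 probe each of Cdh3, Cdh1, Cdh11 and Cdh13, the called genes on chromosome 8, written 5′ to 3′ as the array design gives them. Their positions are on the mouse build mm9, and exon and UTR annotation of that build was not used here.
Cdh3, chr8:109079933-109079992: tattttccctgttatgtgctgtagatggag
Cdh1, chr8:109193812-109193871: acattctaacgggaaaaaggagacaagacc
Cdh11, chr8:105157473-105157532: tattttagtatacatacaaatatcagtatt
Cdh13, chr8:121837969-121838028: acatcacggacctcaaggtgcaggtgtgct
These 4 genes and Cdh5 lie on chromosome 8. The Cdh11 probe was the most AT-rich of the 4, with 28.3% G or C, and the Cdh13 probe held 53.3%.

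The members resemble each other in sequence, so probe pairs were compared by ungapped alignment. The closest pair was that of the type II cadherins Cdh6 and Cdh10, with 35 matching bases of 50 aligned, and it is shown with the matching bases in capitals.
Cdh10: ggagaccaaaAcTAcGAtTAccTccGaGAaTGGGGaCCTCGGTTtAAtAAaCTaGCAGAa
Cdh6: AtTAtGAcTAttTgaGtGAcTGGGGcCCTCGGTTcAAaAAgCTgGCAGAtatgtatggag
No other pair of members' probes shared more than 26 bases in such an alignment. Both probes of the close pair stayed at background on all 6 arrays.

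P-cadherin was called higher in both knockout lines, from no signal well above background in WT MEF. OB-cadherin was called higher with both of its probes in TIAR KO MEF and with 1 of them in TIA1 KO MEF, and E-cadherin was called higher in TIAR KO MEF. N-cadherin was not called in either knockout line against WT MEF. T-cadherin was higher in TIA1 KO than in TIAR KO MEF, and neither line was called against WT MEF for it. Against WT MEF, 2 of 14 probes were called higher and 0 lower in TIA1 KO MEF (14.3%). Of all probes 3.54% were called there, 2.18% higher and 1.36% lower. TIAR KO MEF had 4 of 14 probes, from 3 genes, called higher and 0 lower (28.6%), where 5.76% of all probes were called, 3.39% higher and 2.37% lower. RNA from bulk cultures cannot tell fewer expressing cells from less RNA per cell.

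**Figure D1:**
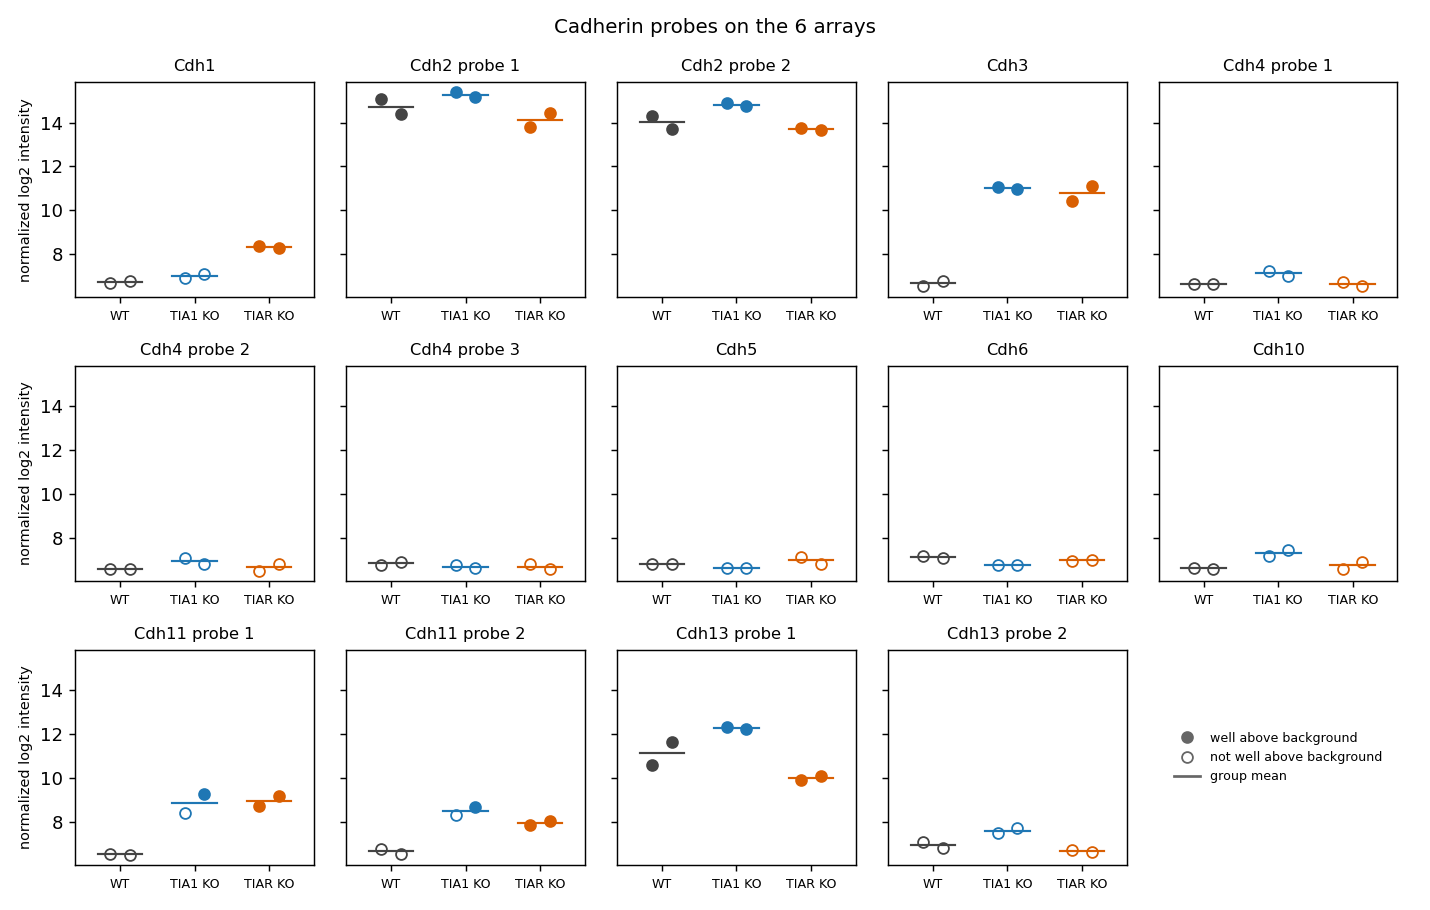
Normalized log2 intensity (vertical axis) of each of the 14 cadherin probes on the 6 arrays, by genotype; each point is 1 array, filled where the probe was well above background and open where it was not, and bars are group means. Cdh3 rises from about background in WT MEF to between 10.44 and 11.11 on the 4 knockout arrays, and Cdh1 is above background only on the TIAR KO arrays.

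Cdh3 encodes P-cadherin, a type I cadherin of placenta and of basal layers of epithelia. Its only probe read 6.54 and 6.78 (WT), 11.08 and 10.95 (TIA1 KO), and 10.44 and 11.11 (TIAR KO). All 4 knockout arrays stood far above both WT arrays, and the probe was not well above background in WT MEF. On the raw scale the spot gave 136 and 147 intensity units in WT MEF, where negative control spots had medians of 112 and 103, and 1336 to 2460 units on the knockout arrays.

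Cdh3 was called higher in TIA1 KO MEF (log2 fold change 4.36 ± 0.17 SE, limma adjusted p = 0.00479). Since WT MEF gave only a bound, the mean was at least 16.4-fold higher, taking for each WT array the higher of the probe's own value and the lowest signal that counted as well above background. That lowest signal is not a detection limit: it was 6.59 on WT replicate 2, where Cdh3 at 6.78 did not count. Folds given as "at least" here and below compare means and leave out the spread between arrays. The 95% interval of the log2 fold change was 3.89 to 4.83. In TIAR KO MEF the log2 fold change was 4.12 ± 0.26 SE (95% interval 3.47 to 4.77, limma adjusted p = 0.00117), at least 13.9-fold. The knockout lines overlapped in Cdh3 level, and the direct comparison gave -0.24 (95% interval -0.99 to 0.51) for TIAR KO minus TIA1 KO. With only 1 WT array 0 of 55681 probes were called by limma in TIA1 KO MEF, so the loss of a call there says nothing about one probe (Cdh3 at adjusted p = 0.236 and 0.228, with log2 fold changes of 4.24 without WT replicate 1 and 4.47 without WT replicate 2). In such fits the lone array is assumed to vary like the other genotype. The TIAR KO call held in all 14 alternative analyses, with log2 fold changes from 3.62 to 6.80. The TIA1 KO call held in 11 of 14, with log2 fold changes from 3.16 to 7.28. Processed intensities also lost it (limma adjusted p = 0.0562), in a fit where no probe of the array was called. The lowest TIA1 KO value, 3.16, came with arrays scaled to a common median in place of quantile normalization. The fold bounds above therefore hold for the normalization used here only.

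Cdh11 encodes OB-cadherin, a type II cadherin of osteoblasts and other mesenchymal cells, and 2 probes report it. The brighter probe read 6.54 and 6.48 (WT), 8.40 and 9.27 (TIA1 KO), and 8.74 and 9.16 (TIAR KO). The other probe read 6.77 and 6.54, then 8.32 and 8.70, then 7.84 and 8.04. With both probes every knockout array was above every WT array, no WT array was well above background, and TIA1 KO replicate 1 was not well above background either.

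In TIAR KO MEF both Cdh11 probes were called higher, with log2 fold changes of 2.44 ± 0.19 SE (limma adjusted p = 0.00228, at least 4.17-fold) and 1.29 ± 0.16 SE (limma adjusted p = 0.0119, at least 2.08-fold). The 95% intervals were 1.96 to 2.92 and 0.87 to 1.70. The second of these calls was lost with processed intensities (limma adjusted p = 0.0521) and in the test of a fold above 2. It was also lost without WT replicate 2 (log2 fold change 1.17) and without TIAR KO replicate 2 (1.19). The first was kept in all 14 alternatives, though it passed the background filter through the TIAR KO arrays alone. The TIA1 KO probes fell on either side of the threshold. The brighter one missed it (2.33 ± 0.33 SE, limma adjusted p = 0.0502). The dimmer one passed (1.85 ± 0.21 SE, limma adjusted p = 0.0327, at least 3.07-fold with 1 of the 2 TIA1 KO arrays well above background). The dimmer probe's call was lost with the replicate block (limma adjusted p = 0.0799), processed intensities (0.0587) and the test of a fold above 2 (0.339). With processed intensities no probe of the array was called in TIA1 KO MEF. The brighter probe was called with a normexp offset of 16 (limma adjusted p = 0.0376), a common median (0.000757) and all 6 arrays in 1 fit (0.0142). Without WT replicate 1 or 2, where no probe of the array was called, the dimmer probe's difference was 1.96 and 1.74 (limma adjusted p = 0.321 and 0.331) and the brighter one's 2.36 and 2.30 (0.367 and 0.355). The brighter probe was called with either TIA1 KO array alone, in fits whose spread came from WT arrays at background that differed little (SD 0.041). Between the knockout lines the brighter probe overlapped (difference 0.11, 95% interval -0.87 to 1.10). The dimmer one did not overlap and was lower in TIAR KO MEF without passing (-0.57, 95% interval -1.13 to -0.0028 before adjustment, limma adjusted p = 0.220).

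Cdh1 encodes E-cadherin, the cadherin of epithelial junctions, whose probe was printed on 10 spots of each array. Averaged over spots it read 6.69 and 6.76 (WT), 6.89 and 7.10 (TIA1 KO), and 8.37 and 8.26 (TIAR KO). Both TIAR KO arrays stood above the other 4, which were not well above background. Within an array the 8 spots kept in TIAR KO MEF had standard deviations of 0.099 and 0.10, and all were well above background. In WT MEF the spots varied by 0.16 and 0.18, and in TIA1 KO MEF by 0.37 and 0.39.

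Cdh1 was called higher in TIAR KO MEF than in WT MEF (log2 fold change 1.58 ± 0.14 SE, 95% interval 1.22 to 1.95, limma adjusted p = 0.00371, at least 2.53-fold). The call held in 13 of 14 alternatives, and was lost when the test itself required more than a 2-fold change (limma adjusted p = 0.173). Cdh1 passed the background filter, 1 of those alternatives, through the TIAR KO arrays alone. For TIA1 KO MEF the difference was 0.26 (95% interval -0.18 to 0.71, limma adjusted p = 0.337). The direct comparison of TIAR KO with TIA1 KO MEF gave 1.32 ± 0.17 SE (limma adjusted p = 0.0410, at least 1.68-fold), in a comparison where 3.35% of all probes were called, 1.72% higher and 1.63% lower. With outlier spots kept this difference was 0.92 and was not called (limma adjusted p = 0.143), nor was it with the replicate block (0.146) or processed intensities (0.245). With the replicate block no probe of the array was called between the lines. Without TIAR KO replicate 1 or 2, where 0 of 55681 probes were called between the lines by limma (6318 and 6402 at an unadjusted p under 0.05), the difference was 1.26 and 1.38 (limma adjusted p = 0.329 and 0.330). Raw intensity of Cdh1 was 249 and 207 units on the TIAR KO arrays, where negative controls had medians of 96.7 and 88.5. On the TIA1 KO arrays it was 249 and 143 units, where negative controls had medians of 196 and 119. The WT arrays gave 120 and 112 units, with negative control medians of 112 and 103.

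Cdh3 and Cdh1 are neighbours in the genome, and their probes lie 113819 bases apart on chromosome 8. The window from 250000 bases before the Cdh3 probe to 250000 bases after the Cdh1 probe held 11 gene names, Cdh3 and Cdh1 included, a set chosen after values were seen. Cdh3 alone was called in TIA1 KO MEF, and Cdh3 and Cdh1 alone in TIAR KO MEF. Zfp90, a zinc finger gene on the Cdh3 side, read 11.35 and 11.35 (WT), 11.20 and 11.44 (TIA1 KO), and 11.67 and 10.00 (TIAR KO). Zfp90 and Chtf8, a cohesion factor gene on the Cdh1 side, were the only genes of the window well above background on all 6 arrays, and neither was called in these comparisons. Has3, a hyaluronan synthase gene on the same side as Chtf8, was not well above background on any array.

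Cdh13 encodes T-cadherin, known in vessel wall and heart as a receptor of adiponectin. Its brighter probe read 10.60 and 11.65 (WT), 12.34 and 12.22 (TIA1 KO), and 9.89 and 10.10 (TIAR KO), well above background throughout. The groups did not overlap, with TIA1 KO MEF highest and TIAR KO MEF lowest, and the WT arrays were 1.05 log2 units apart. Neither comparison with WT MEF passed, at 1.16 ± 0.39 SE for TIA1 KO MEF (limma adjusted p = 0.159) and -1.13 ± 0.36 SE for TIAR KO MEF (limma adjusted p = 0.153). With arrays scaled to a common median in place of quantile normalization, the TIA1 KO difference was -0.30, of the opposite sign. Without WT replicate 1 the TIAR KO difference was -1.65 and the TIA1 KO difference 0.64. Without WT replicate 2 the TIAR KO difference was -0.60 and the TIA1 KO difference 1.69.

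The direct comparison of the knockout lines did pass for Cdh13, with TIAR KO MEF lower by a log2 fold change of -2.29 ± 0.17 SE (limma adjusted p = 0.0144). The sign held in all 14 alternatives, between -2.69 and -1.21, and the call in 8 of them. Some alternatives refit the same values by another test or filter, so the sign could not change in those. The call was lost with the replicate block (limma adjusted p = 0.0856), processed intensities (0.0695), a common median (0.0694) and the test of a fold above 2 (0.0689). With the replicate block no probe of the array was called between the lines. With 1 TIAR KO array, where no probe was called, the difference was -2.18 without TIAR KO replicate 1 and -2.40 without TIAR KO replicate 2 (limma adjusted p = 0.252 and 0.229). The second Cdh13 probe, at chr8:121492114-121492173, was not well above background on any array, with values from 6.60 to 7.71.

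Cdh2, on chromosome 18, encodes N-cadherin, the cadherin of neural and mesenchymal cells. Its brighter probe read 15.08 and 14.39 (WT), 15.39 and 15.15 (TIA1 KO), and 13.81 and 14.46 (TIAR KO). The other read 14.30 and 13.72, then 14.89 and 14.75, then 13.75 and 13.68. TIA1 KO MEF were highest with both probes, and WT and TIAR KO MEF overlapped in both. With arrays scaled to a common median, TIA1 KO MEF were below WT MEF with both, at -1.04 (brighter probe) and -0.77 (dimmer probe). Against WT MEF neither probe was called, with limma adjusted p values from 0.144 to 0.566.

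Between the knockout lines the Cdh2 differences were -1.14 ± 0.28 SE (limma adjusted p = 0.129) and -1.11 ± 0.16 SE (limma adjusted p = 0.04996, just inside the threshold), so 1 of the 2 probes was called lower in TIAR KO MEF. That call was kept in 3 of 14 alternatives. It was lost in the authors' log2 table (limma adjusted p = 0.0689), with a normexp offset of 16 (0.0791), without loess (0.0615), with outlier spots kept (0.0512) and without TIA1 KO replicate 1 (0.0526), with differences between -1.11 and -1.04. It was also lost with processed intensities (-0.92, limma adjusted p = 0.114), the replicate block (0.156) and the test of a fold above 2, and with a common median the difference was 0.02 (limma adjusted p = 0.976). With the replicate block no probe of the array was called between the lines. Without TIAR KO replicate 1 or 2 the difference was -1.15 and -1.07 (limma adjusted p = 0.334 and 0.363). When arrays were scaled to a common median in place of quantile normalization, the difference of this probe was 0.02 and of the opposite sign. In all, 1 member probe was called higher and 2 lower in this comparison, 21.4% of the 14. Of all probes 3.35% were called there, 1.72% higher and 1.63% lower. The knockout lines did not overlap for 11 of 14 probes (78.6%), where 59.9% of all probes did not.

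**Figure D2:**
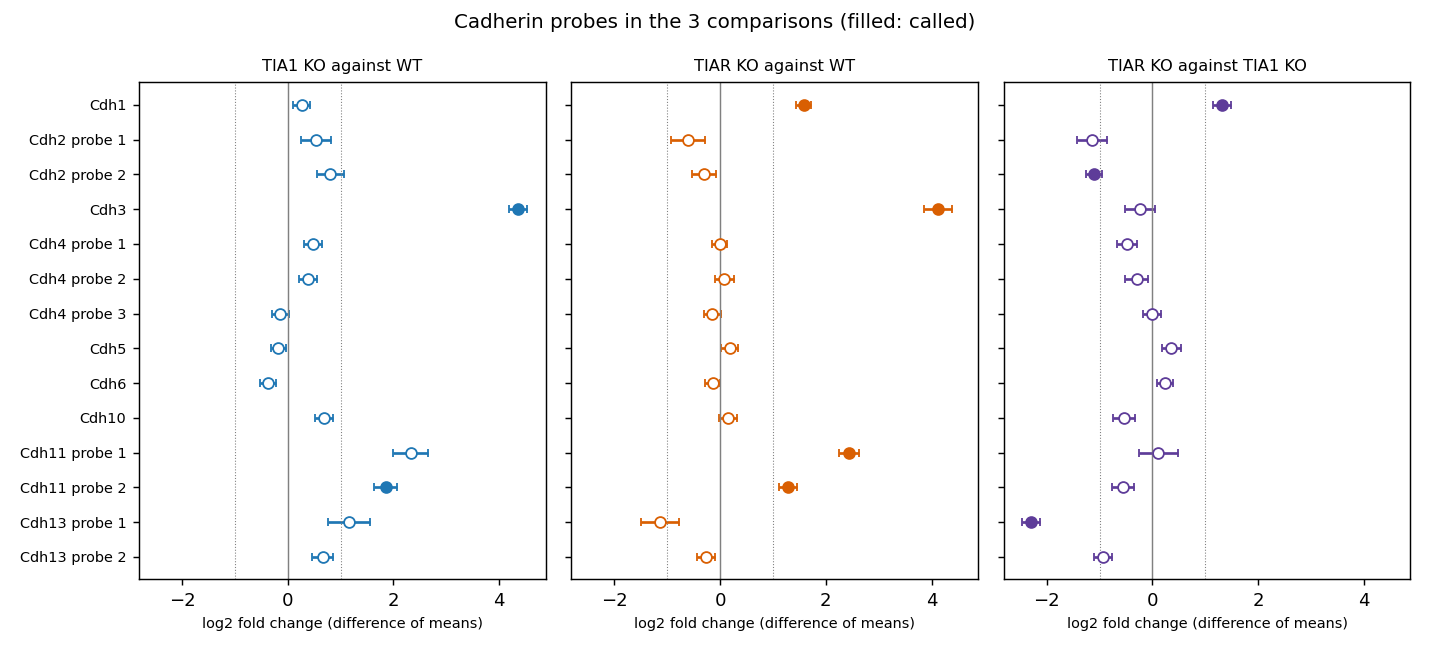
Log2 fold change (horizontal axis, difference of group means, bars are 1 SE from limma, 2 arrays per group) of the 14 cadherin probes in the 3 comparisons; filled points were called and dotted lines mark a 2-fold change. Cdh3 lies beyond 4 in both knockout lines against WT MEF, and Cdh13 lies at 1.16 and -1.13 on opposite sides of 0.

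The members that stayed at background were Cdh4, Cdh5, Cdh6 and Cdh10. Cdh4, on chromosome 2, is the R-cadherin of retina and brain and has 3 probes with values between 6.48 and 7.24. Cdh5, the VE-cadherin that defines endothelial junctions, read from 6.62 to 7.13, and Cdh6, the K-cadherin of kidney, from 6.74 to 7.17. Cdh10, a type II cadherin of brain that lies on chromosome 15 as Cdh6 does, read from 6.58 to 7.43. None of these 6 probes was well above background on any array and none was called, so only an upper bound on their level is available.

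Counted over all 14 probes, the TIA1 KO comparison had a median log2 fold change of 0.60, beside -0.09 over all probes, and the TIAR KO comparison 0.04, beside -0.02. The groups did not overlap for 13 of 14 probes in TIA1 KO MEF (92.9%, where 65.2% of all probes did not overlap) and for 8 of 14 with TIAR KO (57.1%, against 49%). Only 4 of the 14 in the first comparison and 7 in the second had 1 or more groups with signal well above background on each array. Both comparisons use the same WT arrays, so a WT value that strays moves both.

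**Figure D3:**
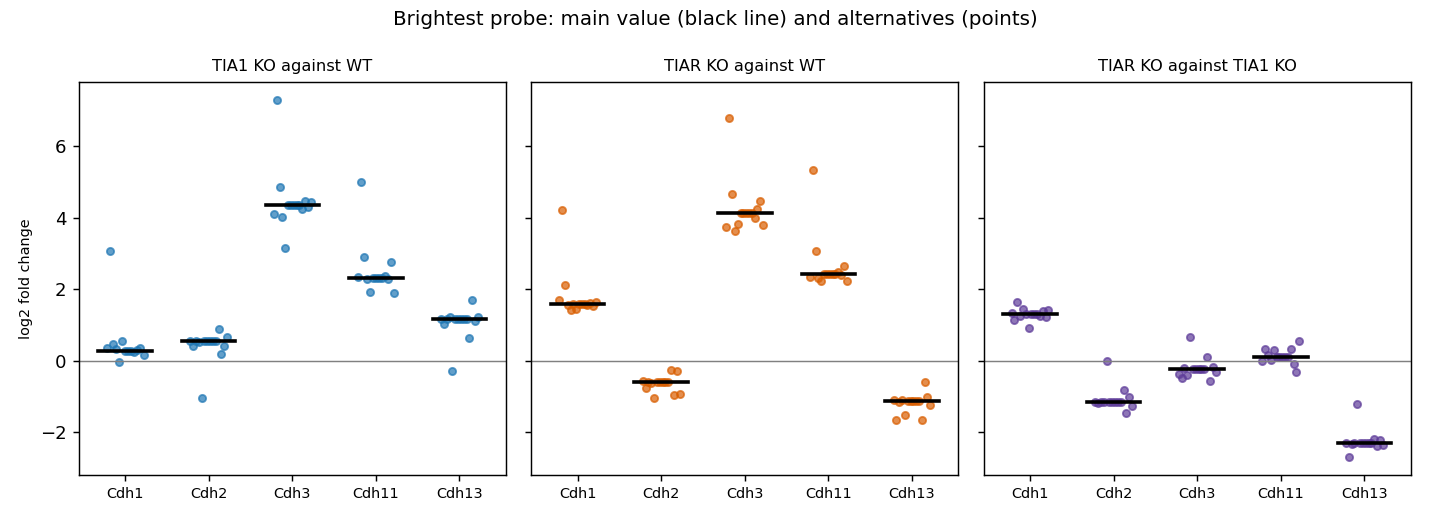
Log2 fold change (vertical axis) of the brightest probe of 5 cadherins in the 3 comparisons; black lines are the values given in the text and each point is 1 alternative analysis. Cdh3 and Cdh11 stay above 0 in every alternative against WT MEF, and Cdh13 stays below 0 in TIAR KO against TIA1 KO MEF, from -2.69 to -1.21.

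Catenins tie the cadherin tail to actin, and 10 such partners were listed. Ctnna1, the alpha-catenin that bridges to actin, was nearly level across genotypes, from 16.24 to 16.55. Ctnnb1, the beta-catenin that also carries Wnt signals, was not called in either line. Ctnnd2, the delta-catenin best known from neurons, was the partner called in both lines: the brighter of its probes read 6.51 and 6.48 (WT), 9.72 and 10.19 (TIA1 KO), and 8.65 and 8.79 (TIAR KO). Both of its probes were called in both lines, the brighter at 3.46 ± 0.22 SE (limma adjusted p = 0.00983) and 2.23 ± 0.14 SE (limma adjusted p = 0.00128), which is at least 8.40-fold and 3.57-fold. The dimmer probe's calls were kept in 7 of 14 alternatives in TIA1 KO MEF, being lost in the authors' log2 table, without loess and with the replicate block among others, and in 9 of 14 in TIAR KO MEF, being lost without WT replicate 2 or either TIAR KO array. Of 17 partner probes, 3 were called higher and 1 lower in the TIA1 KO line, with 2 higher in the TIAR KO line, where 3.54% and 5.76% of all probes were called. The other calls were both in TIA1 KO MEF: 1 of 2 probes of Vcl, the vinculin recruited to strained junctions, was higher (1.99 ± 0.18 SE), and Pkp4, a plakophilin-related tail partner, was lower (-1.13 ± 0.15 SE). The Pkp4 call was kept in 5 of 14 alternatives and was lost in the authors' log2 table, with a normexp offset of 16, without loess, with the replicate block and without TIA1 KO replicate 1, and that of Vcl was kept in 8.

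Repressors of the Snail, Zeb and Twist families bind the E-cadherin promoter in other systems, and all 7 genes listed were well above background on all arrays with at least 1 probe. Snai1 read 11.69 and 12.38 (WT), 12.67 and 12.97 (TIA1 KO), and 13.53 and 13.52 (TIAR KO). Snai1 was called higher in TIAR KO MEF (1.49 ± 0.25 SE, limma adjusted p = 0.0278), the same line in which Cdh1 was higher. Snai2 was called higher in TIAR KO MEF as well (1.41 ± 0.22 SE, limma adjusted p = 0.0209) and Twist2 lower (-1.25 ± 0.22 SE, limma adjusted p = 0.0336). In TIA1 KO MEF 0 of 10 repressor probes were called. Over all probes 3.54% (TIA1 KO) and 5.76% (TIAR KO) were called. Each of these 3 calls was lost when 1 array was left out: Snai1 without either TIAR KO array, Snai2 without either TIAR KO array or WT replicate 1, and Twist2 without TIAR KO replicate 2 or either WT array.

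Other cadherins on the array were read from 4 lists, beside 3.54% (TIA1 KO) and 5.76% (TIAR KO) of all probes called. Of 11 further type I and II cadherin genes on 16 probes, only Cdh26, a cadherin of gut and airway lining, was called. It was higher in TIAR KO MEF (1.05 ± 0.17 SE, limma adjusted p = 0.0231), a call kept in 6 of 14 alternatives and lost without TIAR KO replicate 2 or either WT array. Of 15 probes for desmosomal cadherins 0 were called in either line, and 0 had signal well above background on each array of a group.

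Among the large cadherins that act in planar polarity and growth control, 3 of 11 probes were called higher in each line and 0 lower. Fat4 read 7.86 and 7.75 (WT), 9.22 and 9.47 (TIA1 KO), and 11.01 and 10.64 (TIAR KO). Celsr1, a flamingo cadherin, was called at 3.18 and 2.68 in the lines in that order, and Fat1 by 3.49-fold and 2.83-fold. The TIA1 KO calls were kept in 6 (Fat4), 11 (Celsr1) and 8 (Fat1) of 14 alternatives. Of 64 probes for 47 protocadherin genes, whose products join neuronal and other cells with weaker adhesion, 4 (from 4 genes) were called higher in the first line and 15 (from 13 genes) in the other, and 0 lower. Over all probes 3.54% (TIA1 KO) and 5.76% (TIAR KO) were called, 2.18% and 3.39% higher, so 4 of 64 is not far above the share in TIA1 KO MEF.

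Among protocadherins Pcdhb21, of the clustered beta group, read 7.47 and 6.95 (WT), 11.93 and 11.82 (TIA1 KO), and 11.66 and 11.63 (TIAR KO). Pcdhb16 and Pcdhb6 were called higher in both lines too, and neither was well above background in WT MEF. Pcdhb16 was at least 7.35-fold (TIA1 KO) and 8.64-fold (TIAR KO) higher, and Pcdhb6 at least 8.90-fold and 5.69-fold. Clustered protocadherin genes share sequence, so the counts for them are uncertain. Pcdh19, an X-linked protocadherin of brain, rose by 4.19 (TIA1 KO) and 1.17 (TIAR KO), and the lines differed in the direct comparison (-3.02 ± 0.16 SE, limma adjusted p = 0.00836). The TIAR KO call of Pcdh19 was kept in 9 of 14 alternatives. It was lost with processed intensities, with a common median and when testing a fold above 2. Leaving out WT replicate 1 or TIAR KO replicate 1 lost it too. Pcdh1 and Pcdh7 were called in the TIAR KO line alone among the comparisons with WT MEF, by 3.46 and 3.47 with their brightest probes, and both were also higher in the direct comparison (3.97 and 2.84).

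Of 10 nectin and afadin probes, 1 was called higher and 1 lower in TIA1 KO MEF, and 1 lower in TIAR KO MEF. Of 6 probes for enzymes that cut cadherins, 0 were called in TIA1 KO MEF and 1 higher in TIAR KO MEF. Over all probes 3.54% (TIA1 KO) and 5.76% (TIAR KO) were called. Nectins are immunoglobulin-like receptors of the same junctions. Pvrl1 (nectin-1) was higher (2.47 ± 0.19 SE) and 1 probe of Pvrl2 (nectin-2) lower (-1.24 ± 0.15 SE) in TIA1 KO MEF, and Pvrl3 (nectin-3) was lower in TIAR KO MEF (-1.20 ± 0.16 SE). The calls of Pvrl1 and Pvrl2 were kept in 9 and 8 of 14 alternatives. The Pvrl3 call was lost without WT replicate 2 or either TIAR KO array. Among 6 proteases, Mmp3, a stromelysin that can shed E-cadherin, was called higher in TIAR KO MEF (2.13 ± 0.17 SE, limma adjusted p = 0.00239, at least 3.35-fold). Adam10, the sheddase of E- and N-cadherin, was well above background and not called in either line.

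Of 49 list probes called in TIAR KO MEF against WT MEF, 32 kept the call whichever array was left out, and all 49 kept their sign in all alternatives. Without WT replicate 1 or WT replicate 2, 0 of 55681 probes were called by limma in TIA1 KO MEF (7202 and 7415 at an unadjusted p under 0.05), so the 25 list probes called in that comparison lost their call with all others. Of these 25 probes 24 kept their sign in all alternatives, the exception being Krt19 with a common median, whose call was kept in 3 of 14. Alternatives that refit the same values add nothing to such counts of signs. The 24 list probes called between the knockout lines likewise lost their call with all others without TIAR KO replicate 1 or TIAR KO replicate 2, and 23 kept their sign in all alternatives, the exception being Pcdh9 with processed intensities.

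**Figure D4:**
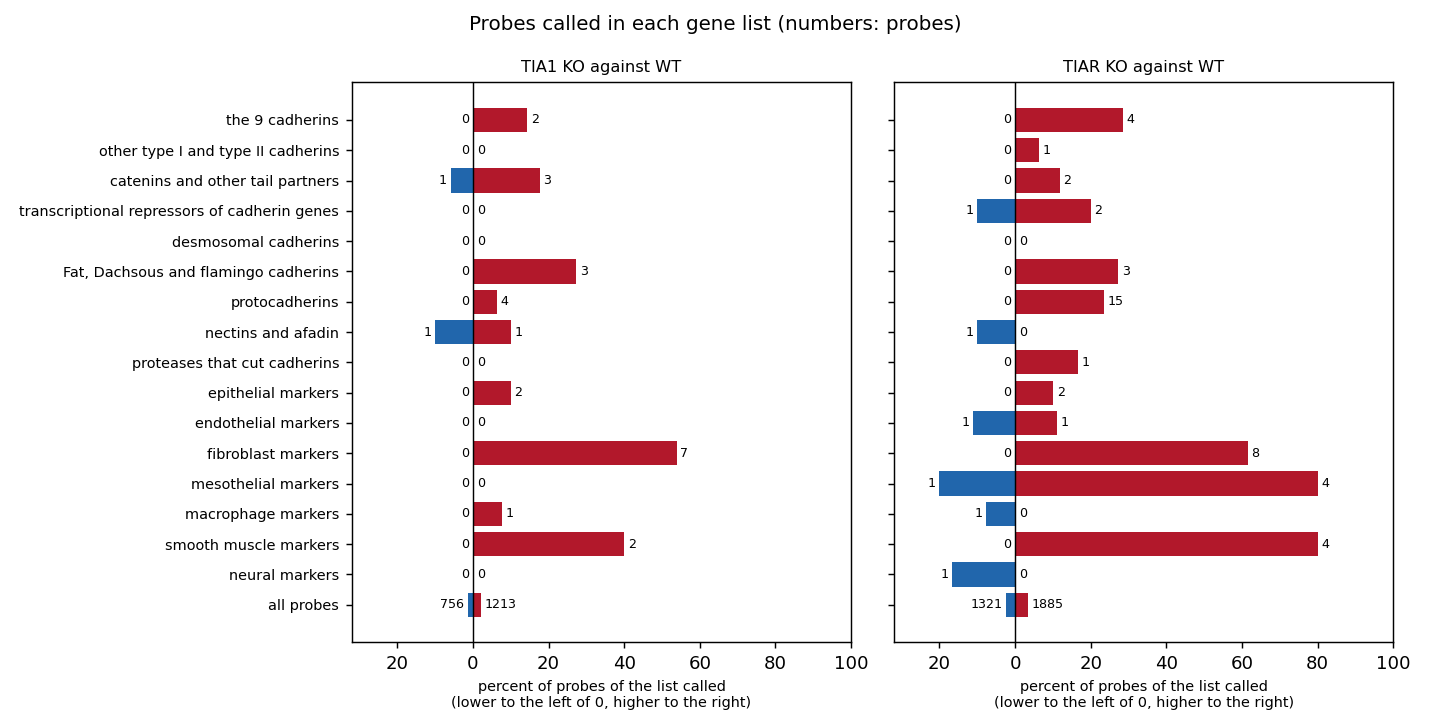
Percent of the probes of each gene list called higher (red, right of 0) or lower (blue, left of 0) in each knockout line against WT MEF; the numbers at the bars are counts of probes. Of 14 cadherin probes 2 and 4 were called higher, and the fibroblast and smooth muscle lists reached larger shares in both lines.

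Markers of several cell types moved in the same comparisons, and their part in the cadherin results was not tested. Of 13 fibroblast marker probes, 7 (TIA1 KO) and 8 (TIAR KO) were called higher and 0 lower. For this list and the marker lists below, the shares over all probes were 3.54% (TIA1 KO) and 5.76% (TIAR KO). The summed linear level of the 12 fibroblast genes was 533734 and 567320 (WT), 1315161 and 1289891 (TIA1 KO), and 1392535 and 1418980 (TIAR KO), with S100a4 brightest by the mean over the 6 arrays. Col3a1, a fibrillar collagen, rose by 6.32 and 6.60 in the lines, and Pdgfra was at least 9.52-fold and 26.1-fold higher. Dcn, the proteoglycan decorin, read 6.57 and 6.62 (WT), 9.24 and 9.29 (TIA1 KO), and 15.67 and 15.82 (TIAR KO).

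Some smooth muscle genes were called higher as well. Acta2, smooth muscle actin and a myofibroblast marker, rose by 4.85 (TIA1 KO) and 5.54 (TIAR KO). It was the brightest gene of its list by the mean over the 6 arrays, though not on each WT array. The summed level of the 5 smooth muscle genes was 15847 and 20349 (WT), 267359 and 296033 (TIA1 KO), and 476828 and 422547 (TIAR KO). Of the 5 probes 2 and 4 were called higher, and 0 lower.

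Of 5 mesothelial markers, of the lining cells of body cavities, 4 were called higher and 1 lower in TIAR KO MEF, and 0 were called in TIA1 KO MEF. Upk3b read 6.84 and 6.31 (WT), 6.35 and 7.42 (TIA1 KO), and 13.95 and 14.15 (TIAR KO), at least 143-fold higher than in WT MEF. Upk1b, Wt1 and Lrrn4 were called higher in TIAR KO MEF too, at least 28.6-fold, 16.3-fold and 4.91-fold, and these 4 genes were not well above background in WT or TIA1 KO MEF. Msln, the brightest of the 5, went the other way (-1.62 ± 0.26 SE, limma adjusted p = 0.0249, lost without either TIAR KO array). With Msln included the summed level of the list was 90869 and 56793 (WT), 242082 and 209461 (TIA1 KO), and 47404 and 45098 (TIAR KO).

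Of 13 epithelial genes, 6 and 8 (WT), 2 and 4 (TIA1 KO), and 7 and 8 (TIAR KO) were well above background. Epcam, an adhesion protein that defines simple epithelia, was well above background on TIA1 KO replicate 2 alone (7.59) and read 6.65 to 6.89 on the other arrays. The tight junction gene Cldn3 was at background on all arrays. Krt18, a keratin of simple epithelia and mesothelium, read 7.29 and 7.30 (WT), 6.80 and 7.79 (TIA1 KO), and 10.08 and 9.95 (TIAR KO) (2.72 ± 0.14 SE, limma adjusted p = 0.000707). Its partner Krt8 was called higher in both lines, by 1.23 each. The TIA1 KO call of Krt8 was kept in 5 of 14 alternatives (lost in the authors' log2 table, with a normexp offset of 16, without loess, with a common median and with the replicate block), and the TIAR KO call was lost without TIAR KO replicate 2. Of 20 epithelial probes 2 were called higher in each line and 0 lower, where 3.54% (TIA1 KO) and 5.76% (TIAR KO) of all probes were called. The summed level of the 13 genes was 6801 and 7195 (WT), 11542 and 12366 (TIA1 KO), and 9548 and 9111 (TIAR KO), with Krt19 brightest.

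Calls in the endothelial, macrophage and neural lists stand beside 3.54% (TIA1 KO) and 5.76% (TIAR KO) of all probes. Of 9 endothelial probes 0 were called in TIA1 KO MEF. Against WT MEF the TIAR KO line had Egfl7 lower (-1.99 ± 0.27 SE, lost without TIAR KO replicate 2) and 1 of 2 Kdr probes at least 2.33-fold higher. Cldn5, Emcn and Tie1, which mark endothelium, were at background on all arrays, as was Cdh5. The summed level of the 8 endothelial genes was 16237 and 12031 (WT), 14254 and 13027 (TIA1 KO), and 6815 and 6335 (TIAR KO), with Egfl7 brightest by the mean over the 6 arrays.

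Of 13 macrophage probes 1 was called in each line. Ptprc, which marks leukocytes, was at background on all arrays. Itgam was higher in TIA1 KO MEF (1.82 ± 0.24 SE, kept in 5 of 14 alternatives and lost without TIA1 KO replicate 1) and Cd14 lower in TIAR KO MEF (-1.32 ± 0.18 SE, lost without either TIAR KO array). The summed level of the 7 macrophage genes was 11126 and 10458 (WT), 21256 and 18744 (TIA1 KO), and 9925 and 9853 (TIAR KO), with Itgam brightest by the mean over the 6 arrays. Nes, the intermediate filament nestin, fell by 4.65 on the log2 scale in TIAR KO MEF, the single call among 6 neural probes. The 5 neural genes summed to 27174 and 22664 (WT), 35639 and 39157 (TIA1 KO), and 2909 and 1457 (TIAR KO).

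The genes whose pattern was most like that of a called cadherin were sought over the 6 arrays among 16510 probes with a curated mRNA accession (16509 for Cdh11). For Cdh3 they were Slit3, a secreted guidance ligand (r = 0.999), and Spats2l (r = 0.998). Slit3 read 6.24 and 6.18 (WT), 11.43 and 11.40 (TIA1 KO), and 10.68 and 11.55 (TIAR KO). For Cdh1 they were Serpina9 and Zfp637 (r = 0.999 each), and for Cdh11 AW146154 (r = 0.996) and Tmsb15b1 (r = 0.995). With 6 arrays in 3 groups such values were common: 394, 599 and 295 probes exceeded r = 0.95 with Cdh3, Cdh1 and Cdh11.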

How the data were processed

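Agilent scanner files of 6 arrays (2 per genotype, 55681 probes) were analysed. The deposited mean spot intensity and local background intensity came from the scanner software, without normalization. The authors' deposited log2 table, made with limma (normexp with offset 50, loess, quantile), served as an alternative, and correlated with the values used here at 0.997 to 0.999 per array. Steps of the same kind were run in limma 3.58.1 (R 4.3.3): normexp with offset 50, log2, cyclic loess with 1 pass, quantile normalization. The study's methods describe loess per array, so the loess step may differ. Control and outlier spots were dropped and spots of a probe averaged. A probe was well above background where at least 50% of its spots were so flagged. The lmFit and eBayes functions were run on the 4 arrays compared, and intervals are 95% from the same fit. The array number limits precision.

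The study's methods give these tests. Members and gene lists were chosen with earlier results of these data known. Named genes were all members, Tia1, Tial1, Gapdh, up to 4 called genes with the largest change in each list (or any gene of a list of at most 10), and the 2 most similar genes. A few further list genes and the genomic neighbours were named after their values were seen. Each gene is represented by its brightest probe. Alternatives were 10 other analyses and leaving out each array. The scripts were tested on simulated data. Deposited processed intensity and quality flags served as alternatives and filters.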

Additional observations from a re-analysis of the deposited data

Results flagged for a closer look

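Cadherin probes differed between the knockout lines by the direct test (limma, adjusted over all probes) in 3 cases, and no explanation was tested. Markers of cell types were called in this comparison too, where 3.35% of all probes were called. Of 5 mesothelial probes 4 were higher and 1 lower, and of 13 fibroblast and 5 smooth muscle probes 3 and 2 were higher. Of 13 macrophage probes 1 was higher and 2 lower, and of 20 epithelial probes 1 was higher. Of 9 endothelial and 6 neural probes 1 each was lower. Their part in the cadherin differences was not tested. Cdh13, T-cadherin, differed by -2.29 for TIAR KO minus TIA1 KO MEF, with TIA1 KO MEF above and TIAR KO MEF below both WT arrays. Cdh1, E-cadherin, differed by 1.32, with signal well above background in TIAR KO MEF alone. The dimmer Cdh2 probe, N-cadherin, differed by -1.11, at an adjusted p just under the threshold, and its brighter probe by -1.14 without passing. Without TIAR KO replicate 1 or TIAR KO replicate 2 no probe of the array was called between the lines, and the differences were -2.18 and -2.40 (Cdh13), 1.26 and 1.38 (Cdh1), and -1.15 and -1.07 (the dimmer Cdh2 probe). The calls were kept in 8 of 14 alternatives (Cdh13), 8 of 14 (Cdh1) and 3 of 14 (Cdh2). With outlier spots kept Cdh1 differed by 0.92 (limma adjusted p = 0.143). With the replicate block none of the 3 was called (limma adjusted p = 0.0856 for Cdh13, 0.146 for Cdh1 and 0.156 for Cdh2). No probe of the array was called in that fit, so it says nothing about single probes. The TIA1 KO arrays had the higher background and stood in another slide row, which cannot be told apart from genotype.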

How the results depend on the processing

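Among single-gene values 324 kept direction and call, 16 lost and 7 gained a call, and 17 changed sign. Having 2 arrays per group limits precision, and probes at background give bounds only. Against 1969 probes called in TIA1 KO MEF, there were 1309 in the authors' log2 table (871 higher, 438 lower), 0 with scanner processed intensities (27765 at an unadjusted p under 0.05), 16041 with a common array median (1857 higher, 14184 lower), 3986 with all 6 arrays in 1 fit (1881 higher, 2105 lower), 440 when testing a fold above 2, 671 with the replicate block and 0 to 10735 leaving out 1 array. With the filter for probes above background 1305 were higher and 1617 lower. The 2 cadherin calls became 0 with processed intensities, 1 with that filter, 1 when testing a fold above 2 and 1 with the replicate block. Both were lost without WT replicate 1 or WT replicate 2. The brighter Cdh11 probe was called as well with a normexp offset of 16, with a common median and with all 6 arrays in 1 fit.

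In TIAR KO MEF 3206 became 1016 when testing a fold above 2 and 2307 to 2797 leaving out 1 array, and with a common median 1403 were higher and 2776 lower. The 4 cadherin calls became 2 when testing a fold above 2, and their number also changed when 1 array was left out. With processed intensities the dimmer Cdh11 probe lost its call (limma adjusted p = 0.0521). Between knockout lines 1866 became 8416 with a common median (7334 higher), 2910 with the filter (1798 higher), 3183 with all arrays in 1 fit (1792 higher), 409 when testing a fold above 2, 0 with the replicate block (10684 at an unadjusted p under 0.05) and 0 to 10086 leaving out 1 array, while processed intensities gave 125 higher and 1384 lower. The 3 cadherin calls became 2 in the authors' log2 table, with offset 16 and without loess (Cdh2 lost), 0 with processed intensities, 1 with a common median, 1 with outlier spots kept (Cdh1 and Cdh2 lost), 0 when testing a fold above 2, 0 with the replicate block and 0 to 4 leaving out 1 array.

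For the brightest cadherin probes the values that changed sign had not been called. With processed intensities in TIA1 KO MEF Cdh6 became 3.18 and Cdh5 2.56, in TIAR KO MEF Cdh6 0.19 and Cdh10 -0.21, and between lines Cdh6 -2.99 and Cdh5 -2.19. With a common median in TIA1 KO MEF Cdh2 became -1.04, Cdh13 -0.30 and Cdh1 -0.028, in TIAR KO MEF Cdh4 0.042, and between lines Cdh3 0.67. Leaving out 1 array, TIAR KO values ranged from -0.085 to 0.069 for Cdh4 and from -0.010 to 0.31 for Cdh10, and values between lines from -0.57 to 0.098 for Cdh3 and from -0.33 to 0.55 for Cdh11. The cause was not tested, but the median of all probes was 1.98 in TIA1 KO MEF and -1.85 between lines with processed intensities, and -0.68 and 0.63 with the common median, beside -0.09 and 0.05 as reported. Among called probes, the dimmer Cdh2 probe between lines became 0.02 with a common median. Krt19 in TIA1 KO MEF changed sign with a common median and Pcdh9 between lines with processed intensities.

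Replicate numbers do not pair the arrays: deviations of same-numbered arrays correlated at 0.03 (WT and TIAR KO), 0.08 (WT and TIA1 KO) and -0.07 (both knockout lines). The replicate block gave 3308 calls in TIAR KO MEF. The slide as a block was not run, since all arrays lay on 1 slide.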
